A study of Mus musculus with 6 samples.

Results

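Natural killer cells are lymphocytes that kill stressed or infected cells and read their targets through a balance of activating and inhibitory receptors. The genes described here encode 10 of these receptors in the mouse: the Ly49 family members Klra3, Klra7 and Klra8, the lectin-like receptors Klre1, Klrk1, Klrd1, Klrb1c, Klrg1 and Klrc1, and the immunoglobulin-like receptor Ncr1. They were taken as every probe set whose gene symbol in the platform annotation equals one of the 10, out of 18193 genes with a probe set of 1 symbol. For 8 of the 10 at least 1 such probe set was found, 10 probe sets in all. The other 2, Klra3 and Klrb1c, lay on probe sets that list several symbols and are given apart. The genes were chosen by their lower signals on the mutant arrays of this same series, so their values between the genotypes are a description and carry no p. How many of them the fit over all genes called is counted only beside the share of all genes.

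The data are probe-set signals from 6 Affymetrix Mouse Genome 430 2.0 arrays of lung cells, 3 from Bmi1 wild-type mice and 3 from mice titled Bmi1 mutant, whose genotype label reads Bmi1 null. The protein made by Bmi1 belongs to a Polycomb complex that holds genes silent. All the mice were 4-month-old females of a mixed Bl6/129 background. Their lungs were dissociated enzymatically, and live cells lacking CD31 and CD45 were sorted, a gate meant to remove endothelial and blood cells. The allele, and whether an array held 1 mouse or a pool, are not stated in the sources used here, so p-values measure only the spread between these samples. Inbred mouse strains are known to differ in which Klra and Klrb1 genes they carry, and the labels do not give the haplotype of each mouse.

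The 2 Bmi1 probe sets were not lower in the mutant-labelled arrays. The first read 996.5, 979.8 and 1164 in wild type and 1276, 1498 and 1565 in mutant (two-sided exact permutation p = 0.1, the smallest that 3 arrays against 3 allow). The second differed by a log2 of 0.16 (exact permutation p = 0.7). Where the probes lie relative to the altered part of Bmi1 is unknown here, so the directions below rest on the labels. Markers that the gate should have removed were bright. Ptprc, which encodes CD45, read 6639 to 8507 in wild type and 5048 to 6708 in mutant, and the 7 pan-hematopoietic markers summed to 45782 to 59356 and 42188 to 51337. Of the 18193 genes, 168 (0.923%) passed an adjusted p under 0.05, 75 higher and 93 lower in mutant (limma, Benjamini-Hochberg over all genes), and with each array centred on its median the split was 120 higher and 88 lower. The calls moved with single arrays: leaving out wild-type replicate 2 left 2 calls, wild-type replicate 3 left 8, wild-type replicate 1 left 65, and mutant replicates 1, 2 and 3 left 23, 61 and 76.

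Most of these receptors are encoded together. In the RefSeq annotation of GRCm38.p6, the 9 lectin-like genes lie on chromosome 6, mostly within the cluster known as the natural killer gene complex, and Ncr1 lies on chromosome 7. Lectin-like receptors pass signals in different ways. Inhibitory ones carry a tyrosine motif that recruits phosphatases such as Ptpn6. Activating ones pair with adaptors, many of them with Tyrobp or Hcst. Several, among them Klrk1, Klrd1, Klrc1 and Klrg1, are also known from subsets of T cells.

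All 8 receptors with a probe set of their own had a lower signal on every mutant array than on any wild-type array. Their log2 differences, mutant minus wild type on log2(signal + 16), ran from -3.23 for Ncr1 to -1.41 for Klrg1. Their median was -2.59, against 0.01 over all genes tested. In the fit over all genes 5 of the 8, all but Klrd1, Klrg1 and Klrc1, were called lower, against 0.511% of all genes, and groups that did not overlap in this direction made up 10.02% of all genes. All 8 lay below -1, as did 2.22% of all genes, and 6 below -2, as did 0.319%. Because the choice of the receptors used this contrast, nothing is read from these counts. In bulk samples, fewer cells of a type and less RNA per cell cannot be told apart.

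**Figure D1:**
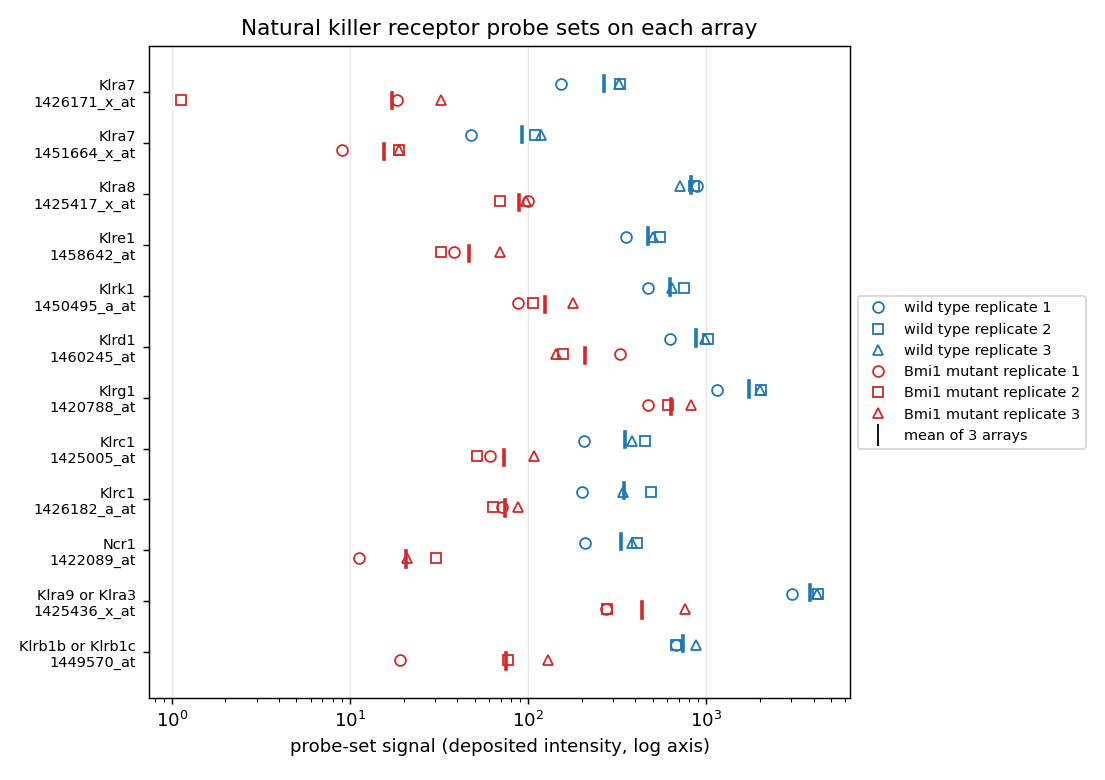
Signal (deposited intensity, log axis) of the 10 probe sets with 1 member symbol and the 2 probe sets that list Klra3 or Klrb1c with another symbol. Each point is 1 array and each vertical bar the mean of 3 arrays. On all 12 the mutant points lie left of the wild-type points, and wild-type replicate 1 (blue circle) is the lowest wild-type array on 11.

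Ncr1 encodes NKp46, an activating receptor that marks natural killer cells and some innate lymphoid cells and is largely absent from other lymphocytes. Its probe set read 208.1, 408.3 and 384.8 on the wild-type arrays and 11.2, 30.2 and 20.8 on the mutant arrays. The mutant signals lay well below the median probe set of the arrays (97.4 to 114.2). The means were 333.7 ± 109.4 and 20.7 ± 9.48 (SD, n = 3 each), 16.1 times apart. The log2 difference of Ncr1 was -3.23 ± 0.31 (SE from limma). The order of the receptors with the lowest values, Ncr1, Klra7 and Klra8, changed with the offset and with the arrays used. Since the mutant mean is near the offset of 16, this value depended on it: adding 1 in place of 16 gave -3.99, and adding 64 gave -2.20.

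The upstream sequence of Ncr1 is shown because it is the member on another chromosome than the rest, with that of Klrk1 as one of the members on chromosome 6. Both are the 250 bases before the most upstream RefSeq start in GRCm38.p6, Ncr1 at chr7:4337465-4337714 on the plus strand and Klrk1 at chr6:129623865-129624114 on the minus strand, written in the direction of the gene. Capitals mark the letters TGTGGT, the core known to be bound by Runx factors, or its reverse complement ACCACA.
Ncr1: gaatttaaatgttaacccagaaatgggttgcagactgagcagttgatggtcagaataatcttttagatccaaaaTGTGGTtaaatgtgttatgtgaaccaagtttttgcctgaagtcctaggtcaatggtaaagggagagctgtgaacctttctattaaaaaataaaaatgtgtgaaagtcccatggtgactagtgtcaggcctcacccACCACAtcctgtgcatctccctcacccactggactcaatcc
Klrk1: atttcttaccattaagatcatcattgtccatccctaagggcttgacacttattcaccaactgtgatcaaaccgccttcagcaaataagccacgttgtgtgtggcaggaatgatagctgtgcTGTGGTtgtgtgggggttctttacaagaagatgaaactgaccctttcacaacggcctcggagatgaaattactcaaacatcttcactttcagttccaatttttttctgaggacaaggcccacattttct
The Ncr1 window holds the motif at 176 and, on the other strand, at 41 bases before the start. The Klrk1 window holds it at 129 bases.

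Windows of this kind were found for 8 of the 10 receptors. Klrd1 and Klrg1 had none in the table. The Runx core, searched on both strands, was in 5 of the 8 (Klre1, Klrk1, Klrb1c, Klrc1 and Ncr1) and in 14.2% of the 27025 genes with a window. AGGTGT, a T-box core, was in 0 of the 8 and in 12.0% of all genes. AGGAAG, an Ets core, was in 1 of the 8 and 29.2% of all genes, and TATAAA in 3 of the 8 and 13.0%. Such matches are a description of letters and no sign of binding.

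Among the Ly49 receptors, Klra7 encodes Ly49G, an inhibitory receptor for MHC class I, and Klra8 encodes Ly49H, an activating receptor that pairs with Tyrobp and recognises a protein of mouse cytomegalovirus. Klra8 read 887.5, 849.4 and 710.2 in wild type and 99.2, 69.8 and 97.2 in mutant. Both groups were tight, with a spread of 93.3 and 16.4 (SD, n = 3 each) around means of 815.7 and 88.7. The log2 difference of Klra8 was -2.996 ± 0.19 (SE from limma), and wild type was 9.19 times higher. It was the only one of the 8 whose lowest wild-type array was not replicate 1.

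Klra7 had 2 probe sets. The brighter one read 153.3, 326.0 and 323.7 in wild type and 18.4, 1.12 and 32.3 in mutant. Its log2 difference was -3.14 ± 0.44 (SE), and its means were 15.5 times apart. The dimmer one read 47.7, 109.5 and 118.7 in wild type and 9.03, 18.8 and 18.8 in mutant, a log2 difference of -1.72 and a ratio of 5.92. The probe sets of Klra7 thus shared the direction but differed in size, and with signals this dim the size depended on the offset, at -4.52 with 1 and -1.997 with 64 for the brighter one.

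The probe set annotated to both Klra9 and Klra3, the second of which encodes the inhibitory receptor Ly49C, was bright. It read 3034, 4253 and 4173 in wild type and 272.8, 276.8 and 758.6 in mutant. The means were 3820 ± 681.8 and 436.1 ± 279.3 (SD, n = 3 each), a log2 difference of -3.23. Mutant replicate 3 stood well above the other mutant arrays and still below every wild-type array. Which of the named genes gave this signal cannot be told apart. A further probe set listing Klra22 and Klra1 read at most 25.5 on any array and carries little information.

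All of the Klra7 and Klra8 probe sets and that of Klra9 and Klra3 end in _x_at, which in Affymetrix naming marks probes that can match more than 1 transcript. The Klra genes arose by duplication, and their upstream sequences are shown because they are alike even outside the coding part. The stretches below, from GRCm38.p6 and all on the minus strand, are Klra8 at chr6:130129960-130130137, Klra3 at chr6:130337627-130337783 and Klra7 at chr6:130233393-130233572. Capitals mark bases that differ from, or have no partner in, Klra8 in a local alignment. Bases of Klra8 that are missing from the other stretches are not marked.
Klra8: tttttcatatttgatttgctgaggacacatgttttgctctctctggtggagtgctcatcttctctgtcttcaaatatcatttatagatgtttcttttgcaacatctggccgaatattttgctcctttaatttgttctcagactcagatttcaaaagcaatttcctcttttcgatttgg
Klra3: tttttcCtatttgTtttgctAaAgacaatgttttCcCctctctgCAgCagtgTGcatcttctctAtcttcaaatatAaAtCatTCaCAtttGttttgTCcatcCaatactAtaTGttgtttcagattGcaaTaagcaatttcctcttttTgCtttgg
Klra7: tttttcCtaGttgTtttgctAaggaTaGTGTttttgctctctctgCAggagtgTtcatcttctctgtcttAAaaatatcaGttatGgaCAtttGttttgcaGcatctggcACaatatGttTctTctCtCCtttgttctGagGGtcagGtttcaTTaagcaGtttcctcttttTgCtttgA
In local alignments of the whole 250-base windows, 194 of 236 aligned bases were identical between Klra7 and Klra8 (82.2%), 138 of 167 between Klra3 and Klra8 (82.6%) and 131 of 156 between Klra3 and Klra7 (84.0%). These shares leave out gaps, which took 2 bases between Klra7 and Klra8 and 23 in each alignment with Klra3. Of the other pairs of receptors, none aligned over more than 69 bases. Signals of the Ly49 genes are uncertain as to the single gene.

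Klre1 encodes a lectin-like receptor that forms heterodimers with KLRI proteins. It read 352.4, 549.9 and 501.9 in wild type and 38.5, 32.4 and 69.2 in mutant. The groups were far apart relative to their spread, with a log2 difference of -2.97 ± 0.28 (SE) and means 10.03 times apart.

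Klrb1c encodes NK1.1, the antigen used to mark natural killer cells in C57BL/6 mice, and its probe set is annotated to Klrb1b as well. That probe set read 671.8, 679.6 and 876.7 in wild type and 19.2, 77.1 and 129.7 in mutant. The mutant arrays differed several-fold among themselves and none came near the wild-type level. The log2 difference was -3.27. Klrb1b, an inhibitory relative that binds Clec2d, had 5 probe sets that list its symbol alone. On all 5 the groups did not overlap, with mutant lower, as on 10.02% of all genes. Wild-type means were 4.07 to 7.73 times the mutant means. Some of these probe sets end in _x_at or _s_at, among them the one that stood for Klrb1b, and may match other transcripts too.

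Klrk1 encodes NKG2D, an activating receptor for stress-induced ligands. It read 473.0, 750.9 and 639.2 in wild type and 87.3, 106.4 and 178.0 in mutant. The log2 difference of Klrk1 was -2.22 ± 0.29 (SE) and the ratio of means 5.01. Klrd1 encodes CD94, the partner of NKG2A and related proteins, though not of NKG2D. Its signals were 628.1, 1018 and 979.9 in wild type and 328.2, 157.2 and 142.7 in mutant, so that here mutant replicate 1 was the highest mutant array. The log2 difference of Klrd1 was -2.04 ± 0.35 (SE).

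Klrc1 encodes NKG2A, the inhibitory partner of CD94 that reads the nonclassical molecule Qa-1. Its 2 probe sets gave nearly the same picture, 199.2, 491.7 and 341.4 against 70.8, 63.3 and 87.1 for the one that stood for the gene, and 206.8, 453.9 and 381.9 against 61.0, 51.6 and 107.2 for the other. Their log2 differences were -1.93 and -2.01. The probe set shared by Klrc3 and Klrc2, which encode relatives of Klrc1, read 85.8, 96.4 and 78.2 in wild type and at most 11.9 in mutant. Klrc2's own probe set overlapped between the groups, with 35.1, 79.4 and 67.2 in wild type and 0.987, 3.16 and 39.2 in mutant (log2 difference -1.50, limma adjusted p = 0.227).

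Klrg1 encodes an inhibitory receptor for cadherins that appears on mature natural killer cells and on effector T cells. It kept the most signal in the mutant arrays, with 1151, 2033 and 1990 in wild type and 469.5, 610.1 and 822.8 in mutant. The mutant mean was 36.8% of the wild-type mean, against 6.21% for Ncr1 and 6.45% for the brighter Klra7 probe set. The log2 difference of Klrg1 was -1.41 ± 0.30 (SE).

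Within wild type, replicate 1 was the lowest array for 7 of the 8 and replicate 2 the highest for 7 of the 8, against 33.1% and 32.3% of all genes. Replicate 1 was also the lowest wild-type array on 13 of 17 other single-symbol Klr probe sets. The mean log2 level of the 8 was 8.72 in wild-type replicate 1, 9.45 in replicate 2 and 9.29 in replicate 3, and 6.62, 6.45 and 6.92 in mutant replicates 1 to 3. Among the marker lists, the mean log2 level was also lowest in wild-type replicate 1 for T cell (9.73, against 10.38 and 10.18), pan-hematopoietic (12.1, against 12.6 and 12.41), neutrophil (9.41, against 9.76 and 9.48) and macrophage markers (11.59, against 11.69 and 12.0). It was not lowest there for B cell (9.32, against 9.59 and 9.2) or dendritic cell markers (9.42, against 9.39 and 9.37), and it was highest there for endothelial (11.09, against 10.31 and 10.39) and fibroblast markers (11.76, against 11.25 and 10.94). Without wild-type replicate 1 the median difference of the 8 was -2.66.

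By root-mean-square distance over the 6 arrays between a gene's centred log2 profile and the mean profile of the 8, the nearest other gene was Il12rb2 (0.186), a receptor chain for interleukin 12. Next came Slc9a7 (0.210), the granzyme gene Gzmb (0.211), Clec4b1 (0.234), the class II gene H2-Ob (0.241), the B cell adaptor gene Bank1 (0.247), the protease gene Ctsw (0.250) and the death ligand gene Fasl (0.259). The 8 receptors themselves lay at 0.231 (Klrk1) to 0.570 (Klrg1), further from their own mean than several of these genes. The distance counts differences between and within the genotypes together and was not split.

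Related genes were taken from lists drawn up by function, with earlier results of these data known. Among 11 measured killer lectin genes beyond the members, Klrb1b and Klrb1f were called lower and 0 higher, against 0.511% and 0.412% of all genes. Klrb1b read 1737 ± 367.3 in wild type and 372.0 ± 168.7 in mutant (SD over 3 arrays) and fell by 2.24 ± 0.34 on the log2 scale (SE, limma adjusted p = 0.0407). Klrb1f fell by 1.68 on the log2 scale (limma adjusted p = 0.0481). Klra17 (-0.79, adjusted p = 0.0829) and Klrb1a (-2.67, adjusted p = 0.118) missed the threshold, Klrb1a with 25.5, 153.4 and 12.9 on the mutant arrays. All 11 lay below 0, against 49.2% of all genes, with a median of -0.74. The groups overlapped on 6 of the 11, against 14471 of all 18193 genes. On the other 5 they did not overlap with mutant lower, against 10.02% of all genes. Klra1, Klra5, Klra16 and Klrc3 read at most 40.3 on any array. Quantile normalization and median centring each called 1 of the 11, and the calls were 0 without wild-type replicate 2, wild-type replicate 3, mutant replicate 1 or mutant replicate 3.

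**Figure D2:**
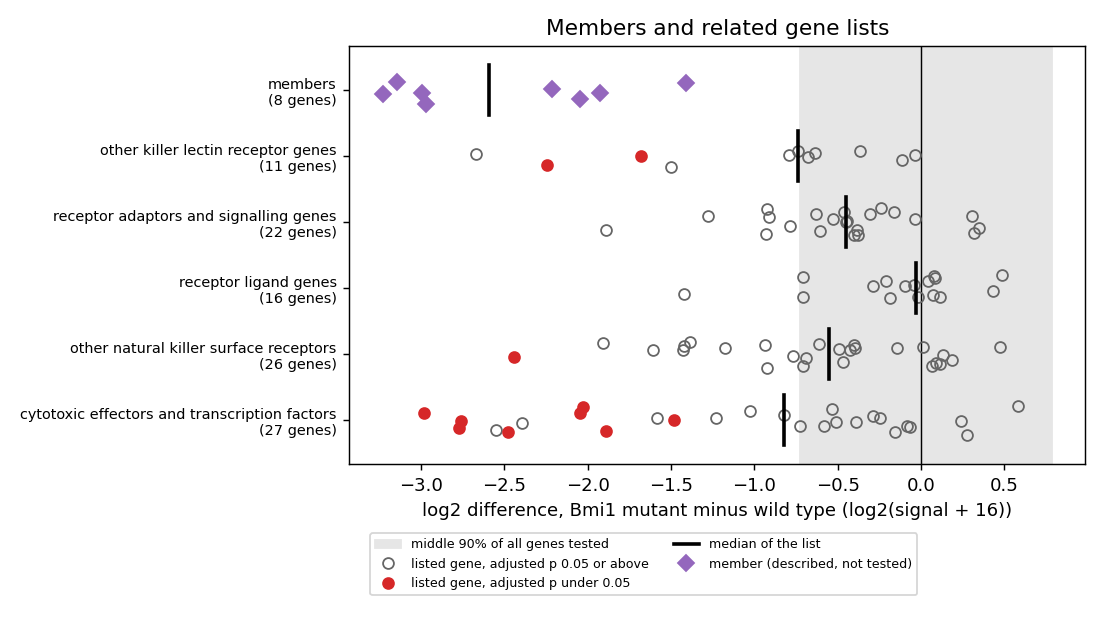
Log2 difference (mutant minus wild type) of the 8 receptors and of the measured genes of 5 related lists. Purple diamonds are the 8 receptors (members), filled red circles passed an adjusted p under 0.05, black bars are list medians and grey spans the middle 90% of all genes tested (-0.72 to 0.79). The receptors lie at -1.41 or below, while ligand genes centre on -0.03.

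Of 22 measured adaptor and signalling genes, limma called 0, against 0.923% of all genes. At an unadjusted p under 0.05 in limma lay 7 of the 22, against 2647 of all 18193 genes. The groups did not overlap with mutant lower on 8 of the 22, against 10.02% of all genes. With mutant higher they did not overlap on 2, against 1899 of all 18193 genes. The list median was -0.45, against 0.01 over all genes. Tyrobp, the adaptor of Klra8 and other activating receptors, is also abundant in myeloid cells and read 11490 to 13340 in wild type and 10900 to 13750 in mutant (log2 difference -0.03, limma adjusted p = 0.956). Hcst, the adaptor of Klrk1, overlapped as well, with 132.7, 225.2 and 300.3 against 224.8, 165.2 and 70.6 (adjusted p = 0.646 in limma). Fcer1g, which carries the signal of Ncr1 and of Fc receptors, differed by -0.24 (limma adjusted p = 0.754). The smallest p-values belonged to the T cell adaptor gene Sh2d2a (-1.89, limma adjusted p = 0.0787), the ubiquitin ligase gene Cblb (-0.91, adjusted p = 0.0788), the kinase gene Fyn (-0.79, adjusted p = 0.103) and the T cell adaptor gene Lat (-0.93, adjusted p = 0.104).

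Genes for ligands of these receptors had a median of -0.03, and limma called 0 of 16 measured, against 0.923% of all genes. At an unadjusted p under 0.05 in limma lay 2 of the 16, against 2647 of all 18193 genes. H60c, which encodes a ligand of the receptor made by Klrk1, read 99.6, 127.3 and 172.4 in wild type and 28.0, 42.9 and 46.4 in mutant (log2 difference -1.42, limma adjusted p = 0.0582). Ulbp1, another such ligand, differed by -0.71 (limma adjusted p = 0.132). Clec2i (-0.71, adjusted p = 0.507) and the cadherin gene Cdh4 (0.48, adjusted p = 0.549) had the next smallest p. B2m, the light chain of MHC class I, differed by -0.04 (limma adjusted p = 0.939), and Cdh1, a ligand of the receptor made by Klrg1, by 0.09 (limma adjusted p = 0.879). H2-T23, Raet1e and Cd244 were not analysed here.

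Of 26 other measured surface receptors of natural killer cells, Il12rb2 was called lower and 0 higher, against 0.511% and 0.412% of all genes. The list median was -0.55. Il12rb2 read 412.7, 802.5 and 784.1 in wild type and 79.0, 105.7 and 135.9 in mutant. It fell by 2.44 ± 0.31 on the log2 scale (SE, limma adjusted p = 0.0269). Il2rb, the shared chain for interleukins 2 and 15 on which natural killer cells depend, read 1375, 2083 and 2203 in wild type and 346.7, 895.2 and 353.6 in mutant. Its log2 difference was -1.91 and missed the threshold (limma adjusted p = 0.0894). Il21r (-1.17, adjusted p = 0.0513) and the adhesion receptor gene Cd226 (-1.42, adjusted p = 0.0794) also missed it. Itga2, which encodes the DX5 antigen, read 181.5, 128.4 and 137.4 against 64.8, 405.7 and 115.0, with mutant replicate 2 above all others (log2 difference 0.01, limma adjusted p = 0.997). The call of Il12rb2 was lost without wild-type replicate 2, wild-type replicate 3, mutant replicate 1 or mutant replicate 3, and with an offset of 1.

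Cytotoxic genes and transcription factors of natural killer and killer T cells had 8 of 27 measured genes called lower and 0 higher. Of all genes, 0.511% were called lower and 0.412% higher. The list median was -0.82. Eomes and Tbx21, the T-box factors of these cells, differed by -2.98 and -2.03 on the log2 scale (limma adjusted p = 0.0100 and 0.0240), Eomes with 600.1 to 994.2 in wild type and 66.6 to 110.1 in mutant. Gzmb, Ctsw and Ifng differed by -2.77, -2.05 and -1.89 (limma adjusted p = 0.0226, 0.0116 and 0.0225), and the others called were Gzma, Fasl and Ccl5. The perforin gene Prf1 read 582.4, 565.5 and 471.6 against 412.6, 386.4 and 327.0 (log2 difference -0.51, limma adjusted p = 0.258). Single arrays moved the count of 8: leaving out wild-type replicate 2 or 3 gave 0, wild-type replicate 1 gave 4, and mutant replicates 1, 2 and 3 gave 1, 2 and 5. An offset of 1 left 2.

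Markers of other cells moved in the same arrays, and their part in the values above was not tested. The counts of called markers below stand beside 0.511% of all genes called lower and 0.412% called higher. T cell markers summed to 14046 to 21616 in wild type and 9077 to 12187 in mutant. All 12 measured lay below 0, against 49.2% of all genes (median -0.81). At an unadjusted p under 0.05 in limma lay 9 of the 12, against 2647 of all 18193 genes. On 6 of the 12 the groups did not overlap with mutant lower, against 10.02% of all genes. Cd8a was called lower, from 1715 ± 440.7 to 557.0 ± 63.8 (SD, n = 3 each, limma adjusted p = 0.0419). Cd3e differed by -0.53 (limma adjusted p = 0.340). B cell markers summed to 6108 to 7783 in wild type and 1153 to 1514 in mutant, with 8 of 8 measured called lower and a median of -2.15. Dendritic cell markers summed to 7582 to 8114 and 3173 to 3816, with 3 of 6 called lower (Xcr1, Cd209a and Ccr7). Of these 6, 5 lay at an unadjusted p under 0.05 in limma. Neutrophil markers went the other way, from 11408 to 15072 in wild type to 22443 to 43729 in mutant. Of these 7, 2 were called higher (Mmp8 and Ltf), and all 7 lay at an unadjusted p under 0.05 in limma.

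**Figure D3:**
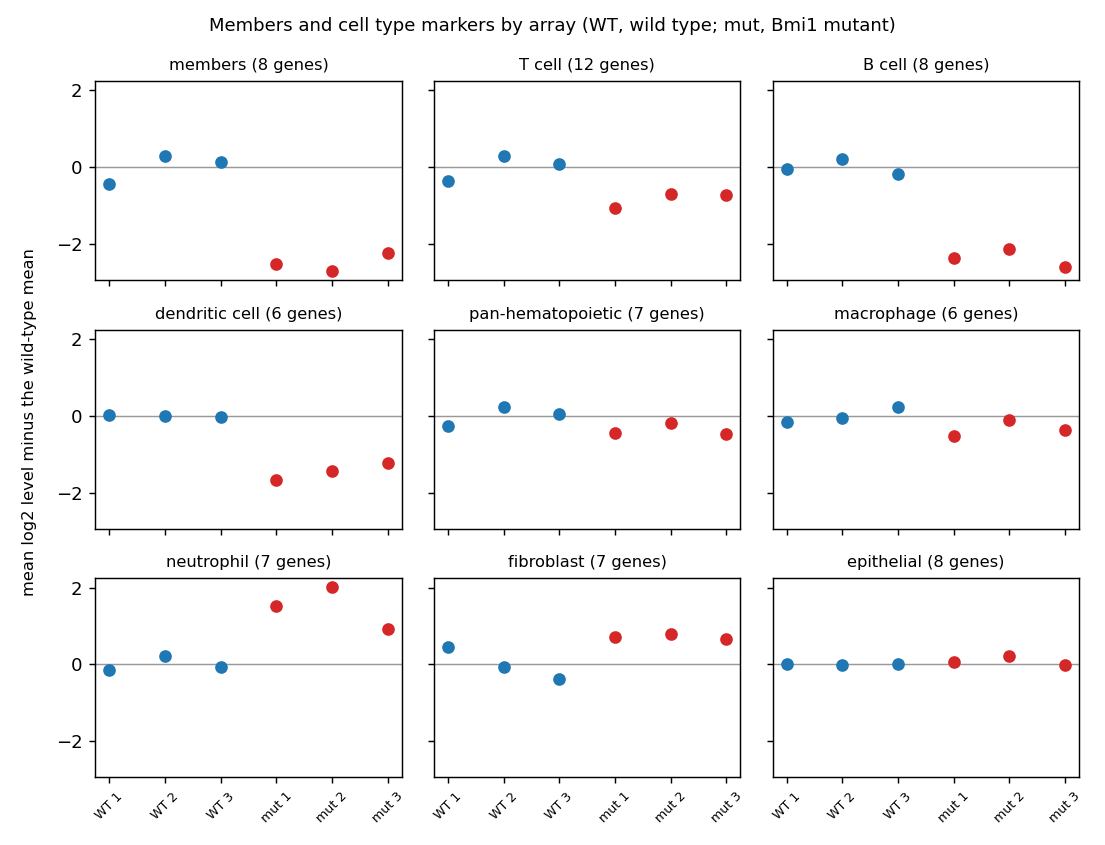
Mean log2 level on each array, minus the wild-type mean, for the 8 receptors (members) and for 8 lists of cell type markers (WT, wild type; mut, Bmi1 mutant). The receptors and the B cell markers lie more than 2 log2 units below wild type on every mutant array, the pan-hematopoietic markers by under 1 and the neutrophil markers above wild type.

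Of the pan-hematopoietic markers, 6 of 7 overlapped between the genotypes, as did 14471 of all 18193 genes. Their median difference was -0.29. Limma called 0 of 7, against 0.923% of all genes. At an unadjusted p under 0.05 in limma lay 2 of 7, against 2647 of all 18193 genes. Ptprc itself differed by -0.42 (limma adjusted p = 0.369), beside -2.59 for the median of the 8 receptors. Markers of innate lymphoid cells of type 2 and type 3, 4 of which were measured, summed to 174 to 347 in wild type and 246 to 623 in mutant, with 0 called and 0 at an unadjusted p under 0.05 in limma. Macrophage markers summed to 31701 to 37548 and 26276 to 36491 with 0 of 6 called (1 at an unadjusted p under 0.05 in limma), and epithelial markers to 68079 to 73143 and 69443 to 81968 with 0 of 8 called (2 at an unadjusted p under 0.05 in limma). Fibroblast markers summed to 19749 to 32119 and 38869 to 44212, with Col1a1 called higher (5 of 7 at an unadjusted p under 0.05 in limma). Endothelial markers, likewise outside the sort gate, summed to 11384 to 19169 and 14852 to 16092 with 0 of 7 called (1 at an unadjusted p under 0.05 in limma).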

How the data were processed

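The values are the linear intensities that the authors deposited. The submitters' processing notes name Expression Console 1.1. How probes were summarized and background removed is not given in the sources used here, nor are detection calls. Trimmed mean intensities of the arrays lay between 500.0023 and 500.0025, so a shift of all genes together cannot be seen. Of 45101 probe sets 64 were controls and left out. Of the others 34945 carried 1 gene symbol, 932 several and 9160 none. The brightest probe set by mean log2 value stood for each of 18193 genes.

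Differences are mutant minus wild type on log2(signal + 16), fitted with limma 3.58.1 in R 4.3.3 over all genes, with Benjamini-Hochberg adjustment and a call at an adjusted p under 0.05. The offset understates folds of dim genes. The members, gene lists and motifs were chosen with earlier results of these data known. Named genes are all members, the up to 4 genes of each list with the smallest p, 17 genes fixed by name (Tyrobp, Hcst, Fcer1g, Il2rb, Itga2, Cd244, H2-T23, B2m, Cdh1, Raet1e, Ptprc, Cd3e, Cd8a, Eomes, Tbx21, Prf1 and Bmi1) and the 8 genes nearest to the members' profile. Others were named after their values were seen. Alternatives were other scalings, offsets of 1 and 64, other ways to join probe sets, a filter on dim genes, a variance trend, array weights, the replicate block and leaving out each array. Upstream sequences are from RefSeq (GRCm38.p6), aligned with Biopython 1.88. Figures were drawn with matplotlib 3.10.9. The number of arrays limits the precision.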

Additional observations from a re-analysis of the deposited data

How the results depend on the processing

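The median log2 difference of the 8 receptors was -1.94 with an offset of 64, -2.13 with the second brightest probe set and -2.13 over the 4 receptors (Klra8, Klrk1, Klrd1 and Klrg1) among genes above the median level, where that filter had left out the other 4. In the other settings it moved by less than the spread between arrays. All 124 single-gene values of the receptors over the alternatives stayed below 0, and 8 of them moved by more than that spread, all with another offset or another use of probe sets. Of the 8 receptors 5 were called; 2 were with an offset of 1, 6 with 64, 7 with the mean of probe sets, 8 with a variance trend, and 0 to 4 with an array left out. Limma called 33 of all 18193 genes with an offset of 1, 265 with 64 and 187 with the mean of probe sets. It called 383 with a variance trend, 197 with array weights and 2 to 76 with an array left out. Among the 9096 genes above the median level, where fewer genes were tested, it called 284. Of the other killer lectin genes it called 1 with quantile normalization, median centring or the filter, 0 with an offset of 1, and 0 to 2 with an array left out. Of the adaptor and signalling genes it called 1 with an offset of 64 or array weights, 3 with the filter, 4 with a variance trend, and 0 to 1 with an array left out. Of the ligand genes it called 1 with the mean of probe sets. Of the other surface receptors it called 0 with an offset of 1, 2 with 64 or the mean of probe sets, 3 with the filter, a variance trend or array weights, and 0 to 1 with an array left out. Of the cytotoxic genes and transcription factors it called 2 with an offset of 1, 10 with 64, 11 with the mean of probe sets, 11 of 20 with the filter, 12 with a variance trend, and 0 to 5 with an array left out. The cause of these moves was not tested.

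Replicate numbers are shared by the genotypes. Deviations of same-numbered arrays correlated weakly, at 0.0735, 0.0485 and 0.0319. Arrays with unlike numbers were not compared, so whether same-numbered arrays share more than a number cannot be told. With the replicate block limma called 0 genes in all, the receptors and each list included (2611 of all genes at an unadjusted p under 0.05).

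Signals near the offset limit the folds of Ncr1 and Klra7, and no detection calls were used.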

Other observations

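The natural killer gene complex also holds genes that are not killer lectin receptors, and these were looked at after the values were seen. In RefSeq's GRCm38.p6 order, 38 protein-coding genes lie from Klrb1c to Klra3, of which 21 are Klr genes and 17 are not. Of those 17, 14 were measured. Their median log2 difference was -0.21, against 0.01 over all genes. Of the 14, 10 lay below 0, against 49.2% of all genes, and on 3 the groups did not overlap with mutant lower, against 10.02%. Clec1b, known from platelets, was the 1 called lower (0.511% of all genes were), with 549.1, 753.0 and 1194 in wild type and 102.9, 138.2 and 178.0 in mutant (log2 difference -2.40, limma adjusted p = 0.0307). Cd69, an early activation antigen of lymphocytes, read 3228, 3904 and 2570 against 1752, 1674 and 1222 (log2 difference -1.05, limma adjusted p = 0.103). Gabarapl1, an autophagy gene between the lectin genes, differed by 0.02 (limma adjusted p = 0.979). Whether the arrays carry the same haplotype of this region was not tested.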
